A study of Mus musculus with 6 samples.

Results

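Alveolar type 1 (AT1) cells of the postnatal mouse lung were 2509 of the 61839 cells in the deposited annotation and were taken as the one cluster that this annotation names AT1, among 34 types. Single-cell RNA sequencing was done on whole dissociated lungs of 36 C57BL/6 pups, 6 for each combination of age and oxygen. Pups breathed room air (21% O2, normoxia) or 85% O2 (hyperoxia) from the day of birth until their lungs were taken on postnatal day (P) 3, 7 or 14, and nursing dams were exchanged between the chambers. The cells of each mouse carried a MULTI-seq sample barcode, a lipid-anchored oligonucleotide, so that mice could be pooled and told apart afterwards. There were 5 pools in 6 libraries, and at each age 3 normoxic and 3 hyperoxic mice shared a pool, replicates 1 to 3 in one and replicates 4 to 6 in the other. Hyperoxia from birth is used as a model of the arrested alveolar growth seen in bronchopulmonary dysplasia, the chronic lung disease of preterm infants. Of the AT1 cells 1243 came from normoxic and 1266 from hyperoxic mice. One mouse, P7 hyperoxia replicate 5, gave 2 AT1 cells and was left out of all sums over AT1 cells, which leaves 5 mice in that group and 35 in all, with 24 to 145 AT1 cells and 82589 to 659092 AT1 unique molecular identifiers (UMIs, counted molecules) per mouse.

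AT1 cells are the flat, very thin cells that cover most of the alveolar surface and through which oxygen reaches the capillaries. They arise from alveolar progenitors and, after injury, from cuboidal, surfactant-making alveolar type 2 (AT2) cells by way of a keratin-rich transitional state. Besides exchanging gas they lay down part of the alveolar basement membrane, move ions and water across the epithelium, and send signals such as VEGFA to the capillary endothelium and platelet-derived growth factors to neighbouring mesenchyme.

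The markers of the cell type were present. A UMI of Ager, which encodes the receptor for advanced glycation end products and is abundant on AT1 cells, was found in 98.4% of AT1 cells. The shares were 91.9% for the kinase anchor gene Akap5, 91.3% for Vegfa, 89.8% for the homeodomain cofactor gene Hopx and 77.0% for the rhotekin gene Rtkn2. On the mm10 build Ager lies at chr17:34597862-34600936 and Vegfa at chr17:46016993-46032369 on the opposite strand, Rtkn2 at chr10:67979570-68059740, Hopx at chr5:77086988-77115121 and Akap5 at chr12:76324891-76334153.

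Levels are given below in CPM, where the UMIs summed over the AT1 cells of a mouse are set to 1000000. They are shares of the sequenced transcripts. Over 33 types with levels, 720 genes reached 200 CPM in AT1 cells and 146 of these were highest there, which describes the cluster and was not tested. Rtkn2 stood furthest apart, with a mean of 862 CPM in AT1 cells and 15.5 CPM in the next type, a ratio of 55.7. Akap5 followed with 2004 CPM against 41.3 CPM in AT2 cells. Itgb6, the integrin chain that pairs with alpha v to activate TGF beta, had a ratio of 27.3, and Col4a3, a collagen IV chain of the alveolar basement membrane, 11.2. Ager was at 8136 CPM in AT1 and 770.0 CPM in AT2 cells, a ratio of 10.6, and the other genes of the 20 most specific to AT1 cells lay below that. Among them Hopx had a ratio of 7.1, with the aerocyte capillary cells next at 396 CPM.

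AT1 cells were not alike in their surfactant transcripts. Transcripts of 12 AT2 genes were a median of 0.274% and at most 38.4% of a cell's UMIs. In the 251 cells with the highest share, above 0.930%, Sftpc (surfactant protein C) stood at 118027 CPM against 1735 CPM in the other 2258 cells, and the median depth was 3498 against 2018 UMIs. Ager was found in 94.8% of these cells and Hopx in 71.7%, where the shares in AT2 cells, at a median depth of 9297 UMIs, were 94.0% and 26.0%. In the clustering of all cells 132 AT1 cells lay outside the main AT1 cluster, 117 of them among these 251, with a median of 13039 UMIs. The 251 cells were between 6.31% (P3 normoxia) and 17% (P7 normoxia) of a group's AT1 cells. Whether these cells are doublets, cells between both types or AT1 cells with taken-up RNA was not tested. Of the named fold changes, 6 lost their call without these cells, and both values are given where those genes are named.

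A UMI of an abundant secreted transcript says little about a single cell here. Sftpc was found in 94.4% of AT1 cells and in 91.9% of general capillary cells, which do not make surfactant, and the club cell secretoglobin Scgb1a1 in 91.9% and 91.5%, at median depths of 2056 and 2623 UMIs. These shares were read as background. Igfbp2, by contrast, was found in 44.0% of AT1 cells, 0.574% of general capillary cells and 1.97% of AT2 cells, the last at a median depth of 9297 UMIs. It was also found in 61.9% of ciliated cells, at a median depth of 12611 UMIs.

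At P14 hyperoxia-exposed lungs held a larger share of AT1 cells among the alveolar epithelial cells that were recovered (AT1, AT2 and Lyz1+ AT2 cells). AT1 cells were 21.3% ± 2.44 (SD, n = 6) of them in normoxia and 34.2% ± 5.56 (SD, n = 6) in hyperoxia, and the 6 hyperoxic mice all lay above the 6 normoxic mice. The difference of 12.9 percentage points had an exact two-sided permutation p of 0.00216, the smallest that 6 against 6 mice can give, and 0.00649 after adjustment over the 3 ages. It was 9.85 percentage points within the first P14 pool and 15.9 within the second. The shares were lower in hyperoxia at P3 (34.2% ± 6.49 against 28.2% ± 4.40, SD, n = 6 each) and at P7 (29.9% ± 7.44 against 22.7% ± 10.1, SD, n = 6 each), and neither difference passed the exact permutation test (adjusted p = 0.14 and 0.193). Without the mouse that gave 2 AT1 cells the hyperoxic mean at P7 was 25.2% and the difference -4.74 in place of -7.19 percentage points. The change of the share with age was not tested. Cells that are lost in dissociation and cells that are fewer in the lung cannot be told apart in these shares.

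AT1 cells of hyperoxia-exposed mice also yielded more transcripts at P14. The mean number of UMIs per AT1 cell was 3192 ± 441 (SD, n = 6) in normoxia and 6786 ± 1854 (SD, n = 6) in hyperoxia (exact permutation test, adjusted p = 0.00649), and the mean of the mice's medians was 2022.5 ± 473 and 4136 ± 1674 UMIs (SD, n = 6 each, exact permutation test, adjusted p = 0.0195). The difference of medians was 3319 UMIs in the first P14 pool and 907 in the second. At P3 and P7 the medians differed by less (1787 against 2012 and 2558 against 2913 UMIs, exact permutation test, adjusted p = 0.532 at both ages). Over the cells of all types depth was higher at P14 as well. The 6 normoxic mice gave 1487 to 3036 cells and 6400770 to 12672651 UMIs. The 6 hyperoxic mice gave 1034 to 1939 cells and 7511693 to 15527815 UMIs. A higher depth changes what a share of transcripts means per cell. Of the 669 genes that fell in share at P14, as described below, 128 had a lower mean number of UMIs per cell in hyperoxia and 541 a higher one.

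**Figure D1:**
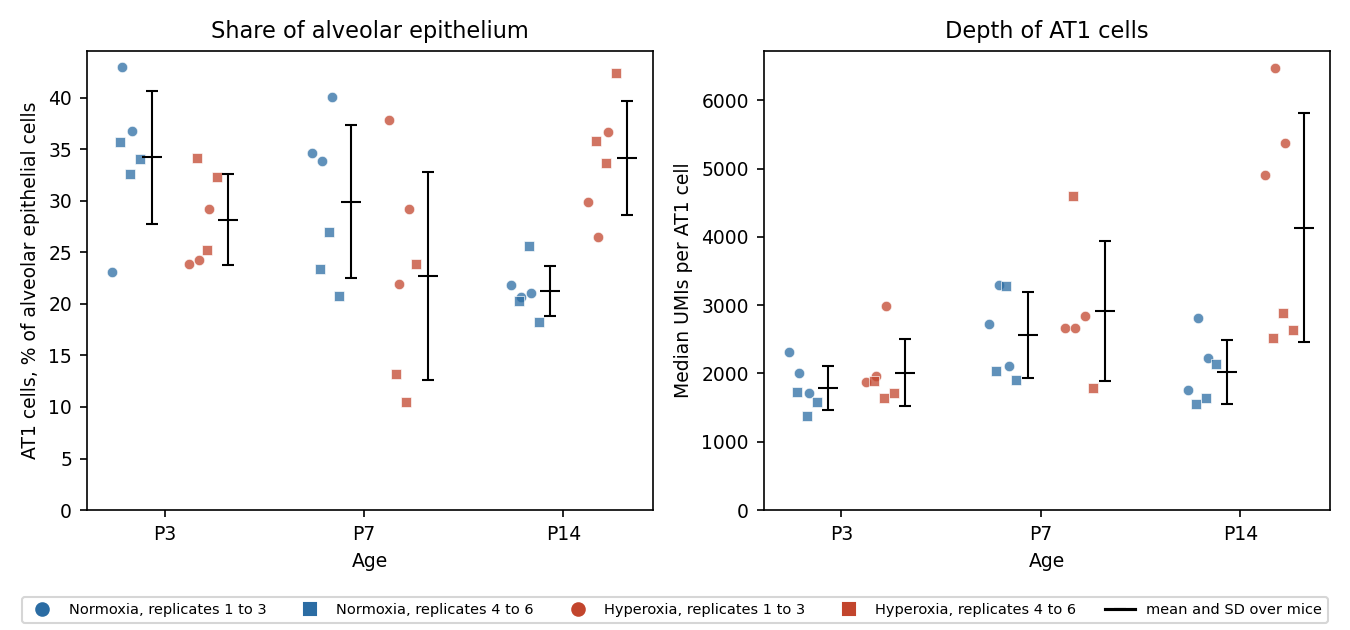
AT1 cells as a percentage of the alveolar epithelial cells (left) and the median UMIs per AT1 cell (right), for each mouse by age and oxygen, with circles for replicates 1 to 3, squares for replicates 4 to 6 and the mean and SD of each group. At P14 the 6 hyperoxic mice all lie above the 6 normoxic mice in share (34.2% against 21.3% on average), and in depth the first pool's hyperoxic mice lie highest.

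In normoxia AT1 cells gained transcripts of their specialized structures between P3 and P14. Of 4931 genes tested by edgeR on the summed counts of each mouse, 421 rose and 367 fell between these ages (8.54% and 7.44%, together 16%). A gene counts as changed throughout where the Benjamini-Hochberg adjusted p over all genes tested was under 0.05 and a UMI was found in at least 10% of the AT1 cells of either group. Age and pool cannot be told apart here, since no pool held mice of both ages. The authors report that the sexes were unequally represented at P3 and P7 and equally at P14. Sex was not a term in any fit, and its part was not tested. The median percent of mitochondrial UMIs per AT1 cell went from 6.04 ± 0.945 at P3 to 8.50 ± 1.41 at P14 and the summed level of 12 AT2 markers from 11187 ± 9047 to 31069 ± 16888 CPM (SD, n = 6 each), and the part of either was not tested. The list of AT1 identity genes had 29 members tested, of which 15 rose and 3 fell (median log2 fold change 0.45, over all genes -0.01). Among the markers Vegfa rose from a mean of 1889 ± 292 to 3029 ± 242 CPM (SD, n = 6 each, log2 fold change 0.79, SE 0.15, adjusted p = 0.000226). Hopx rose by 0.76 (SE 0.20, adjusted p = 0.00644), Rtkn2 by 0.56 (SE 0.16, adjusted p = 0.0119) and Ager by 0.35 (SE 0.12, adjusted p = 0.0368, 0.229 without a filter on low counts) on the log2 scale, while the value of Akap5 was 0.07 (SE 0.18, adjusted p = 0.839).

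Cav1, whose product caveolin 1 shapes the membrane pits called caveolae that are dense in mature AT1 cells, rose from 311 ± 71.8 to 860 ± 130 CPM (SD, n = 6 each, log2 fold change 1.55, adjusted p = 3.91e-08). Of the 7 caveolar genes tested 5 rose and none fell, with Cavin1, Cavin2, Ehd2 and Pacsin2 beside Cav1. Of all genes 8.54% rose. The summed level of 6 endothelial cell markers went from 90.9 ± 41.8 CPM at P3 to 133 ± 28.5 CPM at P14 (SD, n = 6 each). The mean sums of ciliated, fibroblast and leukocyte markers were higher at P14 as well, and those of club, erythroid and mesothelial markers lower. Their part was not tested. Among 16 basement membrane genes 9 rose and none fell, including Col4a3 (0.99, SE 0.15) and the metalloproteinase inhibitor gene Timp3 (1.0, SE 0.15). In the list of paracrine ligands 6 of 17 rose, Vegfa, Igfbp2, Pdgfb, Tgfb2, Sema3b and Sema3f, and 2 fell. Those that fell were Shh, encoding the hedgehog ligand of the lung epithelium (log2 fold change -1.35, SE 0.20), and Fgf18 (-1.06, SE 0.26). Among the AT1 identity genes that fell were Aqp5 (-0.37, SE 0.13) and Cldn18 (-0.40, SE 0.12), the latter encoding a tight junction claudin, and neither passed without a filter on low counts (adjusted p = 0.157 for Aqp5 and 0.104 for Cldn18). Of 16 genes of the transitional epithelial state 6 fell and none rose, among them the keratin genes Krt8 (-0.92, SE 0.18), Krt18 (-1.19, SE 0.20) and Krt19 (-1.11, SE 0.20). The cell adhesion gene Epcam fell by 1.43 on the log2 scale (SE 0.18).

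The largest increases between P3 and P14 were in Wnt10b, a Wnt ligand (3.60, SE 0.44), the cytochrome gene Cyp4b1 (3.24, SE 0.46), the neurotrophin gene Bdnf (3.20, SE 0.31), Nt5e, the ectoenzyme that makes adenosine (2.90, SE 0.24), and Tril (2.88, SE 0.51). The largest decreases included Vsig2 (-2.73, SE 0.39), Fbn2, a fibrillin of developing tissue (-2.64, SE 0.51), Serf1 (-2.61, SE 0.40) and S100a14 (-2.60, SE 0.24). Between P3 and P7 72 genes rose and 26 fell (1.46% and 0.527%, together 1.99%), and between P7 and P14 523 rose and 516 fell (10.6% and 10.5% of those tested, together 21.1%). The number for P3 to P7 rested on few mice, since it dropped from 98 to 64, 60 and 44 genes without P3 normoxia replicate 1, 4 or 6 and to 36 without P7 normoxia replicate 4. It was 30 without the cells high in AT2 genes. The 12 AT2 markers went from 11187 ± 9047 CPM at P3 to 72726 ± 53959 CPM at P7 (SD, n = 6 each), and the largest increases, in Lyz1, Trf, Lyz2, Sftpa1 and H2-Aa, were in genes of AT2 cells or immune cells. Their part in the other changes was not tested.

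The number of genes changed by hyperoxia in AT1 cells was largest at P14. Of the 4931 genes tested 689 rose and 669 fell at P14 (14% and 13.6%, together 27.5%), against 9 and 2 at P3 (0.183% and 0.0406%) and 22 and 25 at P7 (0.446% and 0.507%). The counts at an unadjusted p under 0.05 were 362, 523 and 1887 genes at P3, P7 and P14. At P14 291 genes were higher and 277 lower in every hyperoxic mouse than in any normoxic mouse, 11.5% of the genes tested. Both P14 pools gave changes when fitted as separate groups of 3 against 3 mice. The first P14 pool had 672 genes higher and 648 lower at an adjusted p under 0.05 (13.6% and 13.1%). The second had 234 and 195 (4.75% and 3.95%), and the test of the difference between the pools called 1 gene higher and 2 lower (0.0203% and 0.0406%). Without the first pool 184 genes passed at P14 in place of 1358.

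Every comparison of normoxic and hyperoxic P14 mice uses the same normoxic mice as the comparison of P14 with P3 above, so the values of both are set side by side and no relation between them is drawn. AT1 identity genes fell at P14 under hyperoxia in their share of the transcripts. Of the 29 tested, 19 fell and 1 rose, with a median log2 fold change of -0.65, where the median over all genes was 0.00. By comparison 13.6% of all genes fell. The gene lists were chosen with earlier results of these data known. List counts in every comparison are therefore descriptions and do not test the lists.

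Ager lay between 9118 and 13098 CPM in the 6 normoxic P14 mice (median 10590) and between 4979 and 7358 CPM in the 6 hyperoxic mice (median 6433). The 2 groups did not overlap. Ager fell by 0.76 on the log2 scale (SE 0.12, adjusted p = 7.12e-06), with -1.03 in the first pool and -0.47 in the second, both at an adjusted p under 0.05. Vegfa, the signal to the capillary endothelium, ranged from 2683 to 3374 CPM (median 3013) in normoxia and from 1097 to 2063 CPM (median 1408) in hyperoxia, again with no overlap. It fell by 0.98 (SE 0.15, adjusted p = 5.93e-06), with -1.39 and -0.65 within the pools. Rtkn2 was at 1211 to 1612 CPM (median 1282) in normoxia and 486 to 908 CPM (median 740) in hyperoxia and fell by 0.90 (SE 0.16, adjusted p = 4.24e-05). Without the first pool Ager was at -0.48 (adjusted p = 0.0792), Vegfa at -0.65 (adjusted p = 0.0537) and Rtkn2 at -0.64 (adjusted p = 0.0975).

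Hopx and Akap5 did not pass the test at P14. Hopx was at 2974 to 4626 CPM (median 3768) in normoxia and 1746 to 4782 CPM (median 2624) in hyperoxia, so the groups overlapped (log2 fold change -0.34, SE 0.20, adjusted p = 0.207). Its value was -0.69 in the first pool (adjusted p = 0.00115) and -0.13 in the second (adjusted p = 0.67), and with the pool as a block it passed (-0.41, adjusted p = 0.0081). Akap5 was at 1839 to 2855 CPM (median 1958) in normoxia and 1404 to 2005 CPM (median 1701) in hyperoxia (log2 fold change -0.34, SE 0.18, adjusted p = 0.152), and it too passed with the block (-0.32, adjusted p = 0.018). Within the pools Akap5 was at -0.52 and -0.11.

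**Figure D2:**
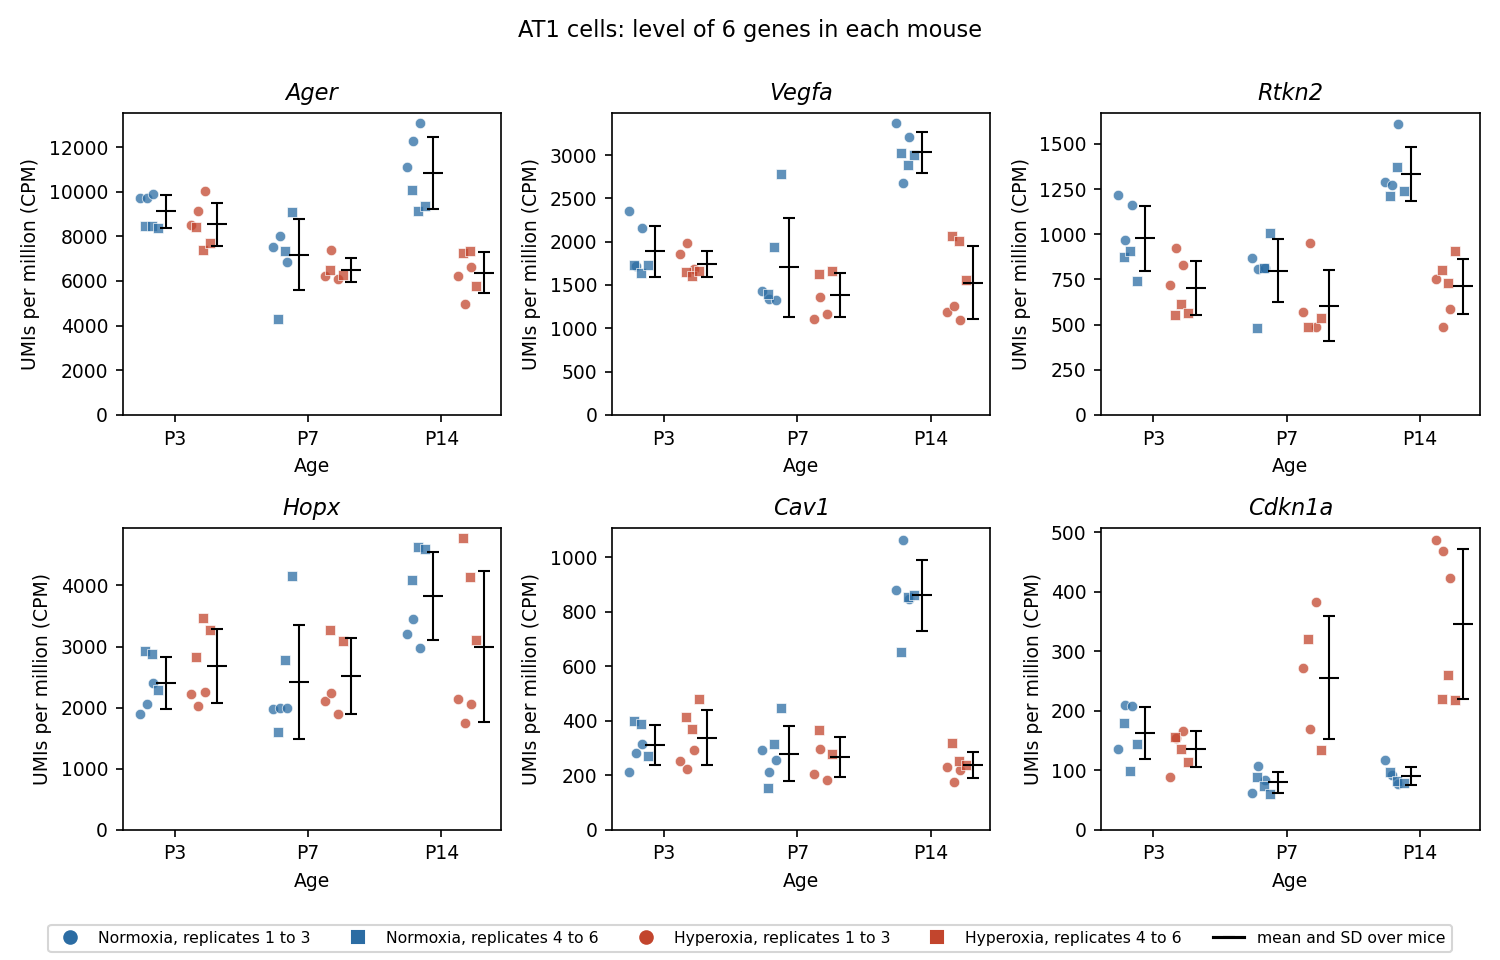
Level of 6 genes in AT1 cells in CPM (vertical axis, from 0) in each mouse, by age and oxygen, with circles for replicates 1 to 3, squares for replicates 4 to 6 and the mean and SD of each group. At P14 Ager, Vegfa, Rtkn2 and Cav1 lie lower and Cdkn1a lies higher in each hyperoxic mouse than in any normoxic mouse, while Hopx overlaps.

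These falls were falls in share. Counted per cell, Ager was at 34.6 ± 7.09 UMIs in normoxic and 42.8 ± 11.5 UMIs in hyperoxic AT1 cells (SD, n = 6 mice each), Vegfa at 9.61 ± 1.0 and 9.77 ± 0.849, and Rtkn2 at 4.24 ± 0.627 and 4.68 ± 1.10. Hopx was at 12.3 ± 3.06 and 18.7 ± 3.76 and Akap5 at 6.88 ± 1.29 and 11.7 ± 3.65 UMIs per cell. The mean UMIs per cell of Ager, Vegfa and Rtkn2 were thus no lower in hyperoxia, in a total that was over 2 times as large. Whether the larger total reflects more RNA per cell or deeper capture was not tested. Each cell of at least 1000 UMIs was also thinned to 1000 UMIs. Cells below that depth were left out, 51 in normoxia and 37 in hyperoxia at P14. In these sums 17 of the 28 AT1 identity genes then tested fell and 1 rose, where 153 of all 1398 genes fell and 154 rose. Of the 19 AT1 identity genes that fell in share 4 had a lower mean number of UMIs per cell and 15 a higher one.

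Each of the 7 caveolar genes tested fell, with a median log2 fold change of -0.91, where 13.6% of all genes fell. Cav1 ranged from 654 to 1064 CPM in normoxia (median 859) and from 175 to 318 CPM in hyperoxia (median 234), so that the 2 groups were far apart. It fell by 1.84 (SE 0.18, adjusted p = 4.26e-10), with -2.14 in the first pool and -1.56 in the second. Cav1 was also lower per cell, at 2.79 ± 0.776 UMIs in normoxia and 1.57 ± 0.339 in hyperoxia (SD, n = 6 each). The caveolar coat genes Cavin1 (-1.03, SE 0.13) and Cavin2 (-1.31, SE 0.18) fell in share too. Per cell Cavin1 stood at 1.55 ± 0.203 and 1.60 ± 0.405 UMIs and Cavin2 at 3.51 ± 1.37 and 2.94 ± 0.836 (SD, n = 6 each), and 2 of the 7 caveolar genes had a lower mean per cell. At 1000 UMIs per cell 5 of 6 caveolar genes fell (153 of 1398 genes in all), and without the first pool 4 of 7 (96 of 5232 in all).

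Other AT1 identity genes that fell include Limch1 (-1.33, SE 0.14) and Lmo7 (-1.14, SE 0.15), both encoding actin-associated LIM domain proteins, Clic5, a chloride intracellular channel gene (-0.91, SE 0.12), and Pdpn, which encodes the AT1 membrane glycoprotein podoplanin (-0.76, SE 0.14). Each was lower within both pools, and Pdpn passed within the first only. Limch1 and Lmo7 fell also without the first pool, where 5 AT1 identity genes fell in all. The water channel gene Aqp5 was at -0.02 (SE 0.12, adjusted p = 0.925) at P14 in share, and at 3.40 ± 0.521 and 7.14 ± 2.26 UMIs per cell (SD, n = 6 each).

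Genes of the basement membrane that AT1 cells help to build fell as well, 9 of 16 tested with none higher (median -0.45), where 13.6% of all genes fell. Timp3, Col4a3 and Col4a4 were already counted among the AT1 identity genes, as were Cav1, Vegfa, Igfbp2 and Clic5 of other lists. Col4a3 ranged from 1635 to 2673 CPM in normoxia (median 2099) and from 920 to 1552 CPM in hyperoxia (median 1172), with no overlap. It fell by 0.82 (SE 0.14, adjusted p = 3.45e-05). Timp3 fell by 1.02 (SE 0.15), the heparan sulfate proteoglycan gene Hspg2 by 0.88 (SE 0.15) and Npnt, an integrin ligand gene, by 0.76 (SE 0.14). Within the pools Col4a3 was at -1.24 in the first and -0.37 in the second (adjusted p = 0.127), and no basement membrane gene passed without the first pool. The test of the difference between the pools called 1 gene higher and 2 lower of all 4931. None of the 9 had a lower mean per cell. Per cell Col4a3 stood at 6.77 ± 1.77 and 7.86 ± 1.69 UMIs (SD, n = 6 each).

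Among 17 ligands that AT1 cells can send to neighbours 6 fell and 1 rose, where 13.6% of all genes fell and 14% rose. Beside Vegfa the falls were in Bmp4, a bone morphogenetic protein (-0.99, SE 0.24), Tgfb2 (-0.71, SE 0.20), Pdgfb (-0.54, SE 0.16), the semaphorin gene Sema3f (-0.88, SE 0.34) and Igfbp2 (-0.79, SE 0.30, adjusted p = 0.045). Sema3f was at -0.76 without the cells high in AT2 genes (adjusted p = 0.0854), and Igfbp2 did not pass by DESeq2 (adjusted p = 0.0842). Shh rose, from 51.4 to 107 CPM in normoxia (median 83.1) to 120 to 158 CPM in hyperoxia (median 136), without overlap. Its log2 fold change was 0.72 (SE 0.20, adjusted p = 0.0045), with 0.68 and 0.71 within the pools. Pdgfa, the platelet-derived growth factor that supports alveolar myofibroblasts, was at 0.04 (SE 0.14, adjusted p = 0.841) in share and at 3.41 ± 0.615 and 7.59 ± 2.57 UMIs per cell (SD, n = 6 each). None of the 6 ligands that fell in share had a lower mean per cell. At 1000 UMIs per cell Tgfb2 (adjusted p = 0.0695) and Pdgfb (adjusted p = 0.259) did not pass. None of the ligand genes passed without the first pool.

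In the list of ion and water transport 5 of 11 genes fell and none rose. Scnn1a, the alpha subunit of the epithelial sodium channel that clears alveolar fluid, fell by 0.75 (SE 0.13, adjusted p = 3.61e-05), with -1.21 in the first pool and -0.28 in the second (adjusted p = 0.24). The amino acid transporter gene Slc6a14 fell by 1.20 (SE 0.18), with -1.56 and -0.83. Among junction genes 3 of 13 fell and Epcam rose (0.83, SE 0.18). In the list of YAP and TAZ genes 4 of 11 fell, Tead1, Amotl2, Lats2 and Ptpn14. Among alveolar transcription factors Nkx2-1, which specifies lung epithelium (-0.65, SE 0.13), and Klf5 (-0.64, SE 0.16) fell and Sox4 rose (0.54, SE 0.19) of 15 tested, where 13.6% of all genes fell and 14% rose. Per cell Scnn1a stood at 1.88 ± 0.421 and 2.27 ± 0.342 UMIs, Nkx2-1 at 1.45 ± 0.265 and 1.89 ± 0.311 and Klf5 at 0.702 ± 0.182 and 0.966 ± 0.344, while Slc6a14 was lower, at 0.832 ± 0.269 and 0.734 ± 0.143 (SD, n = 6 each). Of the 5 ion and water transport genes that fell in share 2 had a lower mean per cell. Nkx2-1 (adjusted p = 0.0924), Klf5 (adjusted p = 0.152), Sox4 (adjusted p = 0.571) and Epcam (adjusted p = 0.201) did not pass without the first pool, nor Sox4 (adjusted p = 0.155) and Epcam (adjusted p = 0.402) at 1000 UMIs per cell. Scnn1a (-0.29, adjusted p = 0.372) and Slc6a14 (-0.84, adjusted p = 0.0552) did not pass by edgeR without the first pool either.

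**Figure D3:**
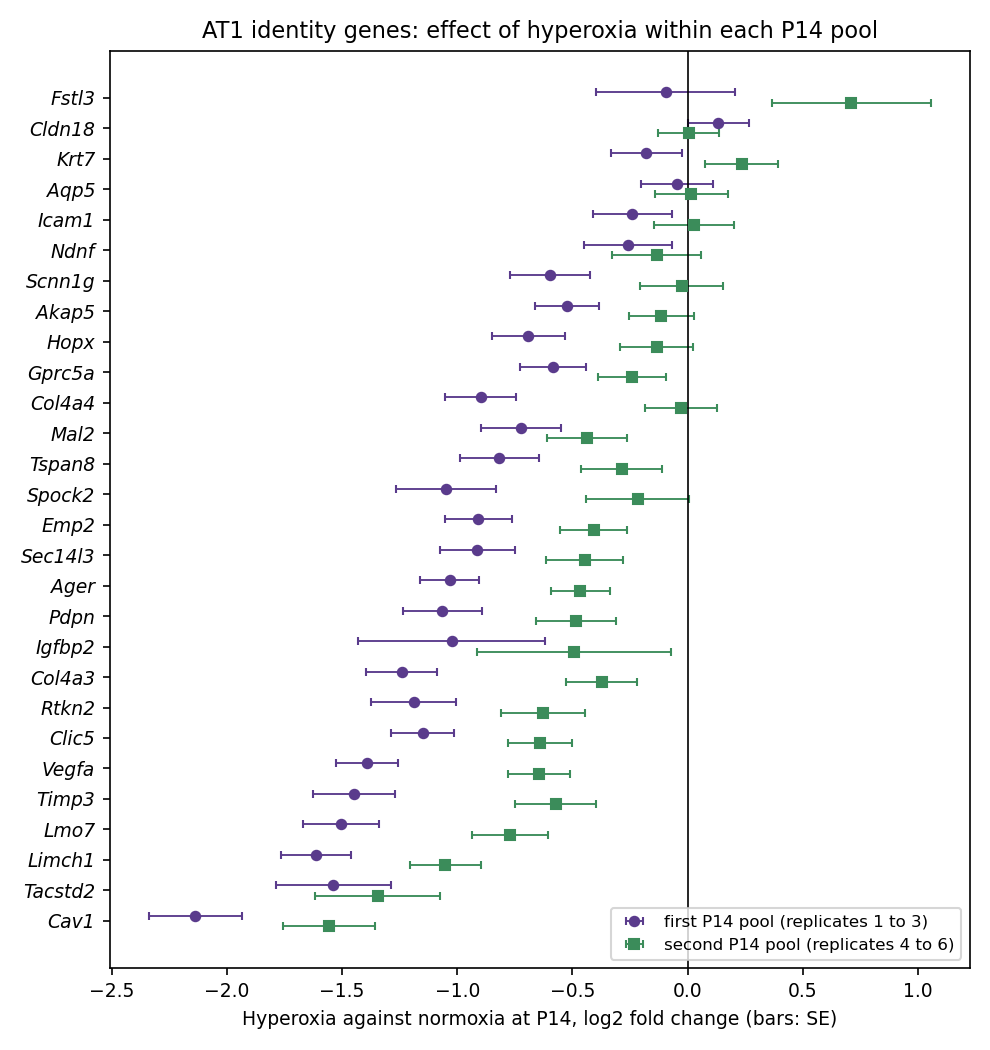
Log2 fold change of hyperoxia at P14 (horizontal axis, bars are SE) for 28 of the 29 AT1 identity genes tested, fitted within the first P14 pool (circles) and within the second (squares), 3 mice against 3 in each. Ager is at -1.03 and -0.47 and Cav1 at -2.14 and -1.56.

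Transcripts of other cell types in the AT1 sums moved too. At P14 the summed level of 5 ciliated cell markers was 436 to 751 CPM in normoxia and 164 to 310 CPM in hyperoxia, that of 6 fibroblast markers 242 to 787 and 111 to 279 CPM, that of 6 endothelial markers 95.6 to 175 and 47.0 to 103 CPM and that of 7 leukocyte markers 82.0 to 339 and 56.1 to 149 CPM. The 4 mesothelial markers were at 133 to 448 and 168 to 362 CPM and the 5 erythroid markers at 11.6 to 30.8 and 2.44 to 25.6 CPM. In AT1 cells of all ages Tppp3, with a mean of 312 CPM and a UMI in 45.4% of the cells, made up nearly all of the ciliated sum, where the other 4 markers were at 1.25 to 5.17 CPM. Msln, at 423 CPM and in 50.5% of the cells, likewise made up the mesothelial sum. These 2 sums are therefore mostly the level of 1 gene each. Whether AT1 cells express these genes or hold their transcripts as background was not tested. The 5 club cell markers were at 1340 to 2446 and 624 to 1714 CPM. All markers of these lists had a UMI in AT1 cells of some mouse. The means of the ciliated, fibroblast, endothelial, leukocyte, erythroid and club lists were lower in hyperoxia, where cells held more UMIs, that of the mesothelial list was not (232 and 258 CPM), and the 12 AT2 markers covered a like range in both (4058 to 49597 and 3833 to 45487 CPM). Their part in the falls above was not tested. Without the cells high in AT2 genes 19 AT1 identity genes fell and 1 rose, as before.

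Of 11 targets of p53, the transcription factor that halts the cell cycle after DNA damage, 4 rose and 2 fell at P14. Of all genes 14% rose and 13.6% fell. Cdkn1a, which encodes the cell cycle inhibitor p21, was at 77.4 to 117 CPM in normoxia (median 87.0) and 219 to 487 CPM in hyperoxia (median 342). The 2 groups did not overlap. It rose by 1.92 on the log2 scale (SE 0.24, adjusted p = 1.54e-07), with 2.25 and 1.5 within the pools. Ccng1, cyclin G1, was at 24.2 to 54.4 CPM (median 32.9) in normoxia and 75.8 to 132 CPM (median 107) in hyperoxia, with no overlap (1.48, SE 0.23, adjusted p = 4.12e-06). Rps27l (1.10, SE 0.16) and the apoptosis gene Bax (0.98, SE 0.20) rose as well, while Perp (-0.89, SE 0.33, adjusted p = 0.0389) and Bbc3 (-0.80, SE 0.31, adjusted p = 0.0486) fell. Neither fall passed without a filter on low counts (adjusted p = 0.0697 for Perp and 0.119 for Bbc3). Cdkn1a, Ccng1 and Rps27l passed also without the first pool, and Bax did not (0.45, adjusted p = 0.389), nor at 1000 UMIs per cell (0.33, adjusted p = 0.541). Per cell Cdkn1a stood at 0.289 ± 0.0573 UMIs in normoxia and 2.53 ± 1.47 in hyperoxia (SD, n = 6 each).

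Genes of the keratin-rich transitional state rose, 9 of 16 tested with none lower (median 0.81, against 14% of all genes that rose). The 9 include Cdkn1a and Sox4, which stand in other lists as well. Krt8 was at 269 to 385 CPM in normoxia (median 321) and 389 to 1052 CPM in hyperoxia (median 527), so the groups did not overlap but lay close at their ends. It rose by 0.88 (SE 0.18, adjusted p = 0.000182), with 0.99 and 0.76 within the pools. Krt18 rose by 0.87 (SE 0.19) and Itgb6 by 0.76 (SE 0.16). The checkpoint gene Sfn (3.22, SE 0.59) and Clu, which encodes the secreted chaperone clusterin (4.13, SE 0.72), had the largest values of the list. Clu rested largely on few cells, since 2 cells of P14 hyperoxia replicate 2 held 46.1% of its UMIs in that group, and within the second pool it was at 1.68 (adjusted p = 0.33). In the AT1 cells of the main cluster Clu was at 0.50 (adjusted p = 0.424). Without the first pool 2 of 16 genes of this list rose, where 88 of all 5232 genes tested rose, and at 1000 UMIs per cell 3 of 12, where 154 of 1398 rose. Without the first pool Krt8 (0.74, adjusted p = 0.053), Krt18 (0.52, adjusted p = 0.268), Itgb6 (0.76, adjusted p = 0.0555) and Sfn (1.84, adjusted p = 0.188) did not pass, nor at 1000 UMIs per cell Krt8 (0.64, adjusted p = 0.0851) and Krt18 (0.68, adjusted p = 0.0538).

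Targets of NRF2, the factor that switches on antioxidant defence, rose at P14 in 10 of 15 genes tested, and none fell (median 0.71). Of all genes 14% rose and 13.6% fell. Me1, malic enzyme, which supplies NADPH, was at 13.7 to 36.0 CPM in normoxia (median 24.7) and 80.7 to 152 CPM in hyperoxia (median 107), with no overlap. It rose by 2.11 (SE 0.28, adjusted p = 4.05e-07), with 2.36 and 1.84 within the pools. The glutathione transferase gene Gsta4 rose by 3.04 (SE 0.60), the ferritin light chain gene Ftl1 by 1.0 (SE 0.14) and the pentose phosphate enzyme gene Taldo1 by 0.92 (SE 0.16). Gclm, the regulatory subunit of the enzyme that starts glutathione synthesis, rose by 0.76 (SE 0.28, adjusted p = 0.0363) and the peroxidase gene Prdx1 by 0.71 (SE 0.18, adjusted p = 0.00246). Gclm did not pass without the cells high in AT2 genes (0.57, adjusted p = 0.165), in the main AT1 cluster (0.60, adjusted p = 0.137), without the first pool (0.86, adjusted p = 0.298) or without the second (0.73, adjusted p = 0.0815). Ftl1, Rps27l and Prdx1 have near copies in the genome, so their counts are less certain. Without the first pool 1 gene of the list passed, with Prdx1 at 0.50 (adjusted p = 0.297). At 1000 UMIs per cell 2 of 5 rose, and Prdx1 was at 0.10 (adjusted p = 0.801) and Taldo1 at 0.23 (adjusted p = 0.704).

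NRF2 binds antioxidant response elements, whose core is written TGACNNNGC. The 250 bases before the start of Gclm and Prdx1 are shown because these were the genes among the 8 NRF2 targets that rose and have a RefSeq promoter window in which the core was found, on either strand. The match is in capitals, 134 bases before the start in Gclm (chr3:122245307-122245556, plus strand, GRCm38.p6) and 133 bases in Prdx1 (chr4:116685349-116685598, plus strand).
Gclm: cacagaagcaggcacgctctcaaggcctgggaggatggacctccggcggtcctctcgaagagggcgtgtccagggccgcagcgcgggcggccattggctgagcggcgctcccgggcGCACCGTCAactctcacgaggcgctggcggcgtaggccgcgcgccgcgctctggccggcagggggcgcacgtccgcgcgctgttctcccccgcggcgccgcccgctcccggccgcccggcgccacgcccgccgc
Prdx1: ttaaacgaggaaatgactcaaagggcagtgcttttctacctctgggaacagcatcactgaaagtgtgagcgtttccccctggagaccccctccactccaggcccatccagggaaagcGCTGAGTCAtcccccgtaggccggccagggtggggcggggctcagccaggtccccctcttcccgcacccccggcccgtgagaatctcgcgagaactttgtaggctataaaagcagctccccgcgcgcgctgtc
Both matches lie on the reverse strand. The core was found in 10.2% of the 32851 windows of this length, in at least one window of 11.5% of the 27025 genes that have one, in 7 of the 26 NRF2 targets with a window (26.9%) and in these 2 of the 8 that rose. A match of these letters is a description of the window and not a binding site.

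Cholesterol and lipid synthesis genes had 15 members tested at P14, of which 5 rose and 1 fell, Scd2 (median 0.77). Of all genes 14% rose and 13.6% fell. Cyp51, a demethylase of sterol synthesis, was at 0 to 20.6 CPM in normoxia (median 8.74) and 18.9 to 44.0 CPM in hyperoxia (median 29.7), with a narrow overlap (1.55, SE 0.41, adjusted p = 0.00384). Hmgcs1 (0.77, SE 0.23), Idi1 (1.21, SE 0.40) and Sqle rose as well. These are low counts, and no gene of the list passed without the first pool.

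Antigen presentation genes rose in 5 of 10 members tested, with none lower (median 0.60), where 14% of all genes rose. The class I gene H2-K1 rose by 0.87 (SE 0.15), with 0.95 and 0.80 within the pools. Cd74, the class II chaperone gene that AT2 cells also express, rose by 1.37 (SE 0.40, adjusted p = 0.00868), with 2.62 in the first pool and 0.32 in the second (adjusted p = 0.723). Without the cells high in AT2 genes 2 of 8 genes rose, where 560 of all 4515 rose. Among 12 antioxidant enzymes 5 rose and 3 fell, and of 14 genes of the TGF beta response 3 rose and 4 fell. Of all genes 14% rose and 13.6% fell.

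**Figure D4:**
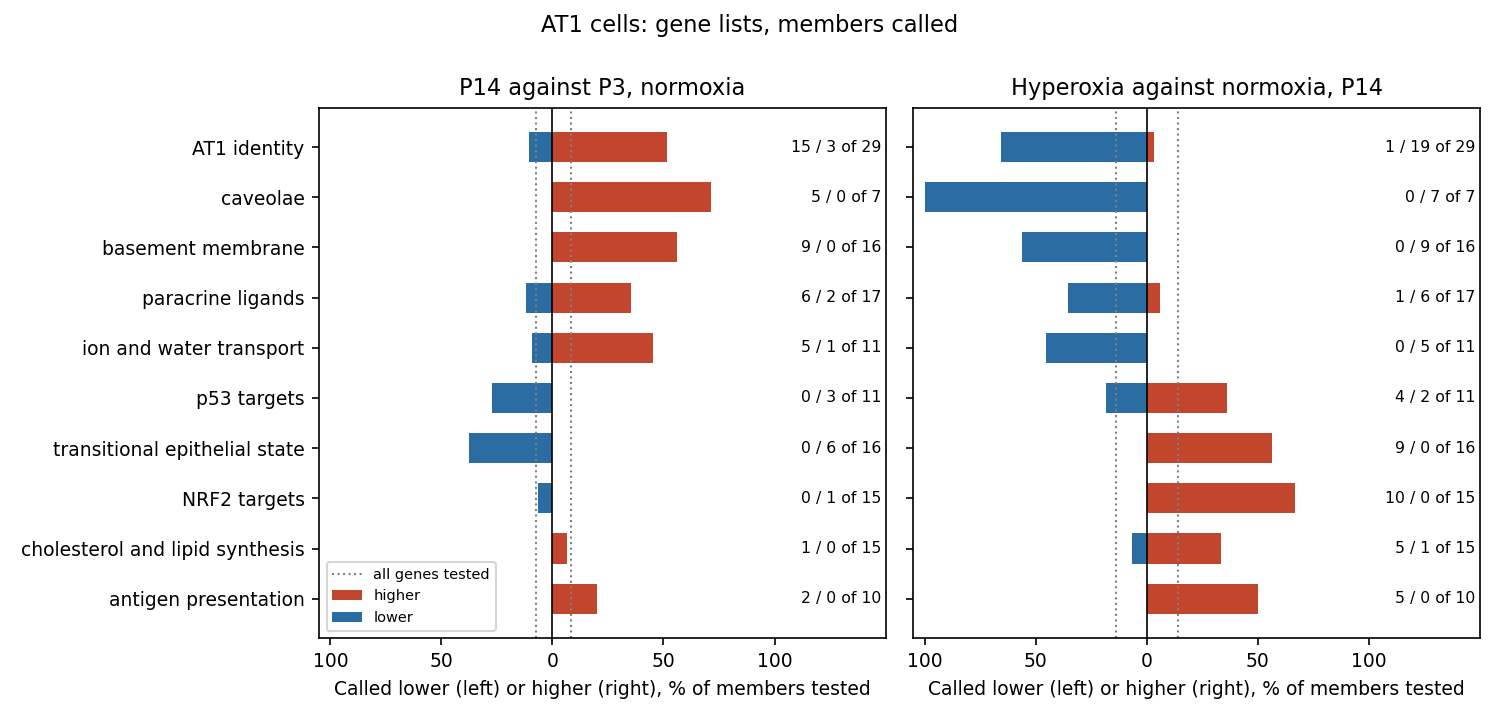
Members of 10 gene lists that rose (right bars) or fell (left bars), in percent of the members tested, between P3 and P14 in normoxia (left panel) and with hyperoxia at P14 (right panel), with counts at the side and dotted lines at the shares of all genes tested. Both panels use the normoxic P14 mice. AT1 identity had 15 rises and 3 falls with age and 1 rise and 19 falls with hyperoxia, and the transitional state 6 falls and 9 rises.

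The largest single changes at P14 beside those above began with Mif, macrophage migration inhibitory factor, a cytokine. It was at 36.4 to 111 CPM in normoxia (median 70.4) and 434 to 907 CPM in hyperoxia (median 589), far from overlap. Mif rose by 3.20 (SE 0.26, adjusted p = 2.18e-12), with 3.58 and 2.80 within the pools, and per cell from 0.228 ± 0.112 to 4.31 ± 2.13 UMIs (SD, n = 6 each). Tinag rose by 3.17 (SE 0.29), with 3.97 and 2.39. The glycolytic gene Aldoa rose at each age, by 0.85 (SE 0.16) at P3, 0.79 at P7 and 1.06 (SE 0.16) at P14, and at 1000 UMIs per cell its P14 value was 0.30 (adjusted p = 0.485). The mm10 annotation gives the symbol Aldoa to a further gene next to it as well, so its counts are less certain. In the other direction Igfbp6, a binding protein of insulin-like growth factors, was at 24.2 to 134 CPM in normoxia (median 78.8) and 0 to 25.6 CPM in hyperoxia (median 8.71), with a narrow overlap. It fell by 3.26 (SE 0.44, adjusted p = 4.31e-07), with -3.09 and -3.38 within the pools. Cyp4b1 (-2.84, SE 0.37), Cttnbp2 (-2.13, SE 0.27), Plscr2 (-2.05, SE 0.23) and the cholesterol exporter gene Abca1 (-2.0, SE 0.24) followed, each lower within both pools.

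At P7 47 genes changed (0.953% of those tested), 30 without P7 hyperoxia replicate 2 and 97 with the pool as a block. The 12 AT2 markers were at 72726 ± 53959 CPM in normoxia (SD, n = 6) and 26705 ± 21526 CPM in hyperoxia (SD, n = 5), and the AT2 genes Lyz1 and Lamp3 were among the largest falls. Their part in the other changes was not tested. Cdkn1a was at 60.9 to 108 CPM in the 6 normoxic mice (median 79.2) and 133, 272 and 382 CPM as the lowest, median and highest of 5 hyperoxic mice. The groups did not overlap, which held for 1.72% of the genes tested at P7, and Cdkn1a rose by 1.64 (SE 0.24, adjusted p = 0.000149). Ccng1 rose by 1.65 (SE 0.27) and Bax by 0.84 (SE 0.19), the latter not passing without P7 hyperoxia replicate 6 (0.66, adjusted p = 0.0972). Igfbp2, which marks terminally differentiated AT1 cells, was at 504 to 2181 CPM in normoxia (median 1299) and 76.5 to 589 CPM in hyperoxia (median 394), with a narrow overlap. It fell by 1.85 (SE 0.33, adjusted p = 0.000698). The galectin gene Lgals3 (1.49, SE 0.26), the interferon-induced gene Ifit3 (2.49, SE 0.39) and Ahnak2 (1.55, SE 0.26) rose, and Id2 (-1.49, SE 0.27) and Id3 (-0.66, SE 0.17), inhibitors of differentiation, fell. Id2 was at -0.30 without the cells high in AT2 genes (adjusted p = 0.721) and at -0.29 in the main AT1 cluster (adjusted p = 0.724). Id3 lost its call under 7 settings, among them leaving out hyperoxia replicate 1, 2, 3 or 6. Scnn1a rose by 0.66 at P7 (SE 0.15, adjusted p = 0.0149), and did not pass without the cells high in AT2 genes (0.56, adjusted p = 0.0557), in the main cluster (adjusted p = 0.0721), at 1000 UMIs per cell (adjusted p = 0.501) or without hyperoxia replicate 2 (adjusted p = 0.0514). At 1000 UMIs per cell, where 2 genes passed at P7 in all, Cdkn1a (1.09, adjusted p = 0.363), Lgals3 (0.88, adjusted p = 0.203) and Bax (0.63, adjusted p = 0.708) did not pass either. Ager (-0.13, adjusted p = 0.787), Vegfa (-0.28, adjusted p = 0.552), Rtkn2 (-0.38, adjusted p = 0.402), Hopx (0.08, adjusted p = 0.963) and Akap5 (0.16, adjusted p = 0.837) did not pass.

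At P3 11 genes changed (0.223%), 21 with the pool as a block. The number was 7 without P3 normoxia replicate 3, 4 without replicate 4 and 6 without replicate 5 or 6, and in hyperoxia 5 without replicate 3 and 7 without replicate 5. Beside Aldoa the growth factor binding protein gene Fgfbp1 (1.04, SE 0.20, adjusted p = 0.0088), the squalene epoxidase gene Sqle (1.53, SE 0.35, adjusted p = 0.0385, and 1.36 with 0.0959 without the cells high in AT2 genes) and Tmem256 (0.83, SE 0.18, and 0.70 with an adjusted p of 0.767 at 1000 UMIs per cell) rose, and the transcription factor gene Klf2 (-1.13, SE 0.24, adjusted p = 0.0152) and Slc17a2 (-1.43, SE 0.33) fell. The AT1 markers were at -0.01 for Ager, -0.03 for Vegfa, -0.39 for Rtkn2, 0.24 for Hopx and 0.08 for Akap5, none with an adjusted p under 0.577.

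Secretoglobin values at P3 and P7 rested on single cells. At P3 Scgb3a2 had a log2 fold change of 5.06 (SE 0.97, adjusted p = 0.00757), and 1 cell of 23305 UMIs in P3 hyperoxia replicate 5 held 93.6% of the group's UMIs of the gene. At P7 Scgb1a1 was at 3.68 (SE 0.86), and 1 cell of 37621 UMIs in replicate 6 held 15901 of the 17582 UMIs of the hyperoxic group. With the pool as a block neither passed (3.87, adjusted p = 0.066, and 2.41, adjusted p = 0.15). The lysozyme gene Lyz1 was at -3.71 at P7 (SE 0.85) and at -0.49 in the main AT1 cluster (adjusted p = 0.645). These values were not read as changes of AT1 cells.

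The effect of hyperoxia itself differed between P14 and P3 for 141 genes with a higher and 187 with a lower value at P14 (2.86% and 3.79%, together 6.65%), 519 in all with the pool as a block. Of the 29 AT1 identity genes 12 had a lower value at P14 and none a higher one (median -0.62, over all genes 0.01). The difference was -0.75 for Ager (SE 0.17) and -0.95 for Vegfa (SE 0.22), with an adjusted p of 0.00545 for each (0.0581 for Ager without a filter on low counts), and -2.04 for Cav1 (SE 0.26, adjusted p = 1.91e-06). For Rtkn2 (-0.51, adjusted p = 0.187), Hopx (-0.58, adjusted p = 0.235) and Akap5 (-0.42, adjusted p = 0.36) it did not pass, and Hopx passed with the pool as a block (-0.64, adjusted p = 0.013). Basement membrane and ion transport lists each had 5 genes with a lower value and caveolae 3. Of the 16 transitional genes 6 had a higher value at P14, including Krt8 (0.90, SE 0.24, adjusted p = 0.0193) and Cdkn1a (2.15, SE 0.35, adjusted p = 0.000122). Krt8 did not pass at 1000 UMIs per cell (0.59, adjusted p = 0.363). Without the first pool Ager was at -0.46 (adjusted p = 0.397), Vegfa at -0.62 (adjusted p = 0.358), Krt8 at 0.78 (adjusted p = 0.269) and Cdkn1a at 1.72 (adjusted p = 0.0867). In the NRF2 and cholesterol lists no gene passed this test (median differences 0.41 and 0.09, over all genes 0.01). On simulated counts the same test found 4 of 100 genes changed 2-fold and 48 of 100 changed 4-fold. There each gene had the same set spread between mice, which was not estimated from these data, so the rates hold for that spread only. A missing call here does not show an equal effect at both ages. Without the first P14 pool 5 genes passed in all, among them 1 of AT1 identity and none of the transitional state.

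Over all ages, with age as a term, 442 genes rose and 396 fell with hyperoxia (8.96% and 8.03%, together 17%). Rtkn2 fell by 0.57 (SE 0.10, adjusted p = 0.000145), Vegfa by 0.44 (SE 0.11, adjusted p = 0.00426) and Ager by 0.30 (SE 0.09, adjusted p = 0.012, 0.0967 without a filter on low counts), while Hopx (-0.01, adjusted p = 0.972) and Akap5 (-0.04, adjusted p = 0.849) did not pass. Without the first P14 pool Vegfa (-0.26, adjusted p = 0.116) and Ager (-0.15, adjusted p = 0.243) did not pass by edgeR. Ager did not pass without the second P14 pool either (-0.26, adjusted p = 0.101). Mif (1.40, SE 0.22), Ccng1 (1.29, SE 0.16), Gsta4 (1.48, SE 0.30), Me1 (1.18, SE 0.18) and Clu (2.09, SE 0.50) were among the largest increases, and Clu was at 0.67 in the main AT1 cluster (adjusted p = 0.0646) and at 0.84 without the first P14 pool (adjusted p = 0.12). In the lists 10 of 15 NRF2 targets, 9 of 16 transitional genes, 6 of 15 cholesterol genes and 4 of 11 p53 targets rose and none fell. Of 29 AT1 identity genes 2 rose and 12 fell, of 7 caveolar genes 3 fell and of 17 ligands 6 fell, with no rise in the latter 2 lists.

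The same mice supplied AT1 and AT2 cells, which allowed the effect of hyperoxia to be compared between them with the mouse as a block. Of 9034 genes tested 107 had a higher and 81 a lower effect in AT1 cells (1.18% and 0.897%, together 2.08%). In the list of cholesterol and lipid synthesis 10 of 20 genes had a higher effect in AT1 cells and none a lower one (median difference 0.77, over all genes 0.01). Cyp51 had a difference of 1.20 (SE 0.18, adjusted p = 1.9e-05), with 1.04 in AT1 cells and -0.14 in AT2 cells over all ages. The differences were 1.17 for Idi1 (SE 0.20), 1.13 for Sqle (SE 0.24) and 0.79 for Hmgcs1 (SE 0.14). In AT2 cells, which use cholesterol for surfactant, Idi1 fell with hyperoxia (-0.39, adjusted p = 0.00566), while the value of Cyp51 did not pass (adjusted p = 0.328).

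In the list of the integrated stress and unfolded protein response, which includes enzymes of amino acid synthesis, 5 of 16 genes had a lower effect in AT1 than in AT2 cells and none a higher one, among them the serine synthesis gene Phgdh (-1.57, SE 0.27) and the asparagine synthetase gene Asns (-1.76, SE 0.25). Nt5e (-2.33, SE 0.31) and Pdgfa (-0.68, SE 0.11) were also lower, and Pdgfa had 0.78 in AT2 cells over all ages. Ager had a difference of 0.69 (SE 0.10, adjusted p = 5.64e-06), with -0.95 in AT2 cells over all ages, where its mean level over all mice was 770.0 CPM. The differences for Vegfa (-0.29, adjusted p = 0.285), Hopx (0.41, adjusted p = 0.164, 0.0161 without a filter on low counts) and Rtkn2 (0.29, adjusted p = 0.673) did not pass. No p53 target of 21 tested and 1 NRF2 target of 27 differed, where 2.08% of all genes differed.

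**Figure D5:**
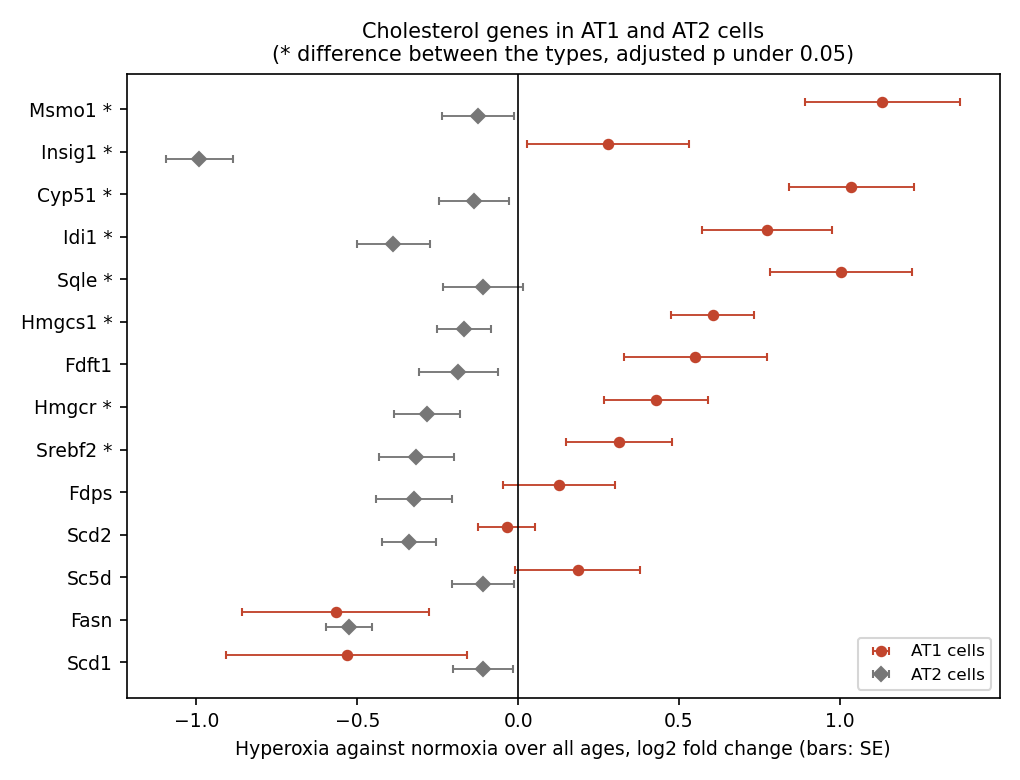
Log2 fold change of hyperoxia over all ages (horizontal axis, bars are SE) in AT1 cells (circles) and AT2 cells (diamonds) for 14 of the 15 cholesterol and lipid synthesis genes tested, with a star where the difference between the types passed. Cyp51 stands at 1.04 in AT1 cells and at -0.14 in AT2 cells, and each starred gene lies higher in AT1 cells.

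Against club cells 5 of 6939 genes had a higher and 2 a lower effect in AT1 cells (0.0721% and 0.0288%, together 0.101%), while 87 differed in all without a filter on low counts and 105 by limma-voom. Tppp3, a ciliated cell gene, was at 1.58 (SE 0.31, adjusted p = 0.0117), Spink5 at -3.14 (SE 0.61, adjusted p = 0.0117) and Abca1 at -2.40 (SE 0.51, adjusted p = 0.0326), and Ager was at 0.07 (SE 0.22, adjusted p = 0.955). In the list of cholesterol and lipid synthesis 17 genes were tested against club cells and none differed (median difference -0.06, over all genes 0.02).

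Shares of AT1 cells with a UMI were compared with every cell thinned to 1000 UMIs, since depth differed between groups. There were 24 such tests over 6 readouts. At P7 Igfbp2 was found in 53.9% ± 12.4 of the cells of normoxic mice (SD, n = 6) and 22.3% ± 8.86 of those of hyperoxic mice (SD, n = 5, exact permutation test, adjusted p = 0.0173). At P14 the shares were 43.3% ± 8.32 and 26.6% ± 8.18 (SD, n = 6 each, exact permutation test, adjusted p = 0.0416). Cdkn1a was found in 7.47% ± 2.76 and 14.6% ± 4.06 of cells at P7 (SD, n = 6 and 5, exact permutation test, adjusted p = 0.039) and in 5.32% ± 4.61 and 20.5% ± 8.13 at P14 (SD, n = 6 each, exact permutation test, adjusted p = 0.0173). The gene was found in 38.9% of general capillary cells without thinning, against 27.0% of AT1 cells, so free RNA from other cells may enter these shares and its part was not tested. At 2000 UMIs per cell the adjusted p of the exact permutation test was 0.0346 for Igfbp2 at P7, 0.0606 for Igfbp2 at P14, 0.0606 for Cdkn1a at P7 and 0.0649 for Cdkn1a at P14, and without thinning it was 0.104, 0.156, 0.156 and 0.026. With labels permuted within pools the adjusted p for Igfbp2 at P7 was 0.045 at 1000 UMIs and 0.09 at 2000 UMIs. In normoxia the share with Krt8 fell from 41.4% ± 5.31 at P3 to 25.1% ± 7.09 at P14 (SD, n = 6 each, exact permutation test, adjusted p = 0.0173). The Wnt target Axin2, the proliferation genes Mki67 and Top2a, and Sftpc, which is at background, did not pass in any comparison.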

How the data were processed

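The authors aligned 10x Genomics 3' v3 reads to mm10 with Cell Ranger 3.0.2 (per the labels' processing notes), assigned cells to mice by MULTI-seq barcodes, filtered them and deposited raw UMI counts per gene and cell, with an annotation that gives each cell's cluster and mouse. The deposited annotation also holds the percent of mitochondrial reads and cell cycle scores, which the authors computed. The deposited counts of sample barcodes were used as a check: in 2449 of 2509 AT1 cells the cell's own barcode had the most counts. The authors had removed cells with more than 1 sample barcode or over 20% mitochondrial reads, although 55 deposited AT1 cells exceeded 20%, and no doublet caller was run here. AT1 cells held 2507 distinct cell barcodes, 2 of them in 2 libraries. The 9992717 AT1 UMIs were summed per mouse in Python 3.11.15 (numpy 2.4.6, pandas 2.3.3) for mice with at least 10 AT1 cells. Mice are the replicates, and p-values measure the spread between mice.

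Sums were fitted with edgeR 4.0.16 in R 4.3.3 (TMM, filterByExpr, glmQLFit and glmQLFTest) with a mean for each age and oxygen group, or with oxygen and age. P-values were Benjamini-Hochberg adjusted over all genes tested. Within-pool values come from a mean for each age, oxygen group and pool. AT1 was compared with AT2 and Club with the mouse as a block and terms for type by age and type by oxygen. Shares and depths were tested by two-sided exact permutation over mice, by listing every assignment of mice in Python. The sparse counts were held with scipy 1.17.1. Same-numbered replicates within an age shared a pool in blocks of 3, so the pool served as the block. CPM is the count scaled to an AT1 sum of 1000000 UMIs, and intervals and tests do not cover errors in cell annotation.

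The members and the 23 gene lists (444 of 451 genes in the files) were chosen with earlier results of these data known, partly from a previous analysis of them. The text names the markers Hopx, Ager, Rtkn2, Vegfa and Akap5 in each comparison, up to 4 members of a list in each direction with the smallest adjusted p, tested members of the identity, ligand and p53 lists, and the largest changes among genes whose log2 CPM averaged 5 or more. Results for a few genes are not reported here. Aldoa was named at each age after its values were seen. The pipeline was tested on simulated counts with the same set spread between mice for each gene. This spread was not estimated from these data, and the rates hold for it only. At P14 20 of 100 genes changed 2-fold and 87 of 100 changed 4-fold were found among 4931, with 4 false calls. For the difference between P14 and P3 in the effect of hyperoxia, 4 of 100 and 48 of 100 were found, with 1 false call. Alternatives were DESeq2 1.42.0, limma 3.58.1 (voom), no filter, at least 25 cells, the block, thinning, cell subsets, and leaving out each mouse. Promoter windows and positions are from RefSeq GRCm38.p6 and from the mm10 annotation.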

Additional observations from a re-analysis of the deposited data

Results flagged for a closer look

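Among 144 groups of values of named measures, 8 held a mouse that stood far from the others by Dixon's test, where chance alone gives about 1 in 20. At P3 this was the median of 2984 UMIs per AT1 cell in hyperoxia replicate 3. At P7 they were the share of cells with a UMI of Axin2 in normoxia replicate 1 (7.46%), that of Igfbp2 in hyperoxia replicate 3 (6.58%) and the 951 CPM of Rtkn2 in hyperoxia replicate 2. At P14 they were the share with Mki67 or Top2a in normoxia replicate 6 (4.17%), the share with Axin2 in hyperoxia replicate 3 (1.54%), the share with Krt8 in hyperoxia replicate 1 (42.5%) and the 1052 CPM of Krt8 in hyperoxia replicate 2. Krt8 rested on that last mouse in its mean of 592 CPM more than in its median of 527 CPM. For Mki67 or Top2a and for Axin2 at P14, no other mouse of the flagged group had such a cell. Both of those flags rest on few cells.

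Hyperoxia had unlike effects at P14 and at P3, by the test of the difference in edgeR, on genes of several kinds. The difference on the log2 scale was -0.75 for Ager, -0.95 for Vegfa and -2.04 for Cav1, and 0.90 for Krt8 and 2.15 for Cdkn1a. The largest values in either direction were 4.13 for Clu, 3.75 for Sfn, 3.09 for Fam89a, 2.82 for Mif and 2.73 for Ly6c1, and -5.67 for Scgb3a2, -3.48 for Cyp4b1, -3.23 for Igfbp6, -2.28 for Lims2 and -2.25 for Sh3d21. Clu was at 0.46 in the main AT1 cluster (adjusted p = 0.739) and at 3.47 without the cells high in AT2 genes (adjusted p = 0.174), by edgeR. Without the first P14 pool the values, none past the threshold, were 1.67 for Clu, 2.38 for Sfn, 2.08 for Fam89a, 2.03 for Ly6c1, -1.60 for Lims2 and -1.01 for Sh3d21, and Scgb3a2 (-5.52) and Igfbp6 (-3.34) did not pass either. For Scgb3a2 the value came from P3, where 1 cell held 93.6% of the UMIs of the hyperoxic group.

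The effect of hyperoxia also differed between AT1 and AT2 cells of the same mice. The difference was 1.20 for Cyp51, 1.17 for Idi1, 1.13 for Sqle, 0.79 for Hmgcs1 and 0.69 for Ager, and -1.57 for Phgdh, -1.76 for Asns, -2.33 for Nt5e and -0.68 for Pdgfa. Between AT1 and club cells it was 1.58 for Tppp3, -3.14 for Spink5 and -2.40 for Abca1.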

How the results depend on the processing

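Depth and the first P14 pool set the limits of these results. Without the first P14 pool 184 genes changed at P14, 276 over all ages and 5 in the difference between P14 and P3, and without the second pool 394 changed over all ages. Ager (adjusted p = 0.079), Vegfa (adjusted p = 0.054) and Rtkn2 (adjusted p = 0.097) then missed the threshold at P14 by edgeR, with 3 against 3 mice. Thinning each cell to 1000 UMIs, with cells below that depth left out, left 1398 genes to test. Of these 136 changed over all ages, 2 at P3, 2 at P7, 307 at P14 and 65 in the difference between P14 and P3. In normoxia 21 changed between P3 and P7, 272 between P7 and P14 and 331 between P3 and P14. These settings and the subset of the main AT1 cluster were chosen after seeing the data.

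Over all ages 552 genes changed without age as a term. Without a filter on low counts 29 genes changed at P3, 100 at P7 and 87 between AT1 and club cells, and limma-voom called 105 for the latter. Between P3 and P7 in normoxia 30 genes changed without the cells high in AT2 genes and 33 in the main AT1 cluster. The cause was not tested. For club cells the alternative of at least 25 cells of both types was not run, since 2 mice had them. Leaving out 1 mouse at a time, the numbers ranged from 662 to 941 over all ages, 4 to 12 at P3, 30 to 68 at P7, 1131 to 1403 at P14, 234 to 375 in the difference between P14 and P3, 36 to 111 between P3 and P7, 813 to 1049 between P7 and P14 and 610 to 841 between P3 and P14.

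With the pool as a replicate block, 21 genes changed at P3, 97 at P7 and 519 differed between P14 and P3. The block could not be fitted for P14 against P3 or P7, whose mice share no pool. It changed the calls of Hopx, Akap5, Scgb3a2 and Scgb1a1 given above.

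Shares of cells with a UMI depended on thinning. Without it the difference between hyperoxia and normoxia in percentage points was -22.4 for Igfbp2 at P7, -9.73 for Igfbp2 at P14 and 11.8 for Cdkn1a at P7, and that between P14 and P3 was -9.91 for Krt8, none of which passed, while 27.0 for Igfbp2 between P14 and P3 passed. At 2000 UMIs Igfbp2 at P14 (-21.2) and Cdkn1a at P7 (12.8) and P14 (14.8) did not pass and Igfbp2 between P14 and P3 (30.3) did. Small differences changed sign, none of them past the threshold: without thinning Axin2 at P7 (0.796), Krt8 at P3 (1.77) and Sftpc at P3 (0.830), P7 (0.499) and P14 (2.71), and at 2000 UMIs Axin2 at P3 (-0.444) and Sftpc at P3 (1.13) and between P14 and P3 (1.95).

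Of the log2 fold changes of named genes, those that changed sign were near 0, apart from Scgb3a2 at P3, which was -0.013 in the main AT1 cluster. They were Aqp5 at P14 (0.027 without a filter, 0.00024 without the cells high in AT2 genes, 0.058 in the main AT1 cluster and 0.0039 without the first pool), Pdgfa at P14 (-0.020 without the second pool), Vegfa at P3 (0.047 thinned), Akap5 at P7 (-0.0065 in the main cluster and -0.072 thinned) and over all ages (0.065 without the first pool). Hopx changed sign at P7 (-0.13 without the cells high in AT2 genes, -0.11 in the main cluster, -0.042 thinned, -0.0073 without P7 hyperoxia replicate 4 and -0.0093 without replicate 6) and over all ages (0.033 without a filter, 0.0040 without P7 hyperoxia replicate 1, 0.012 without replicate 3 and 0.10 without the first pool). Leaving out 1 mouse at a time, Hopx reached 0.17 at P7 without hyperoxia replicate 3 and -0.040 over all ages without P7 hyperoxia replicate 6. Over the 161 named values 1877 repeats under other settings kept direction and side of the threshold, 128 lost the threshold, 6 gained it and 19 changed sign.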

Other observations

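In the cell cycle calls that the authors deposited, 1830 of the 2509 AT1 cells were in G1, 346 in S and 333 in G2/M. In cells thinned to 1000 UMIs, with those below that depth left out, Mki67 or Top2a was found in few AT1 cells. The shares in normoxic mice were 2.01% ± 1.45 at P3 and 0.694% ± 1.70 at P14 (SD, n = 6 each). No cycling is read from the calls alone.

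Some of the 20 genes most specific to AT1 cells were not described above. Scnn1g, the gamma subunit of the epithelial sodium channel, stood at 420 ± 106 CPM (SD over mice) with club cells next at 48.3 CPM. Cdkn2b, a cell cycle inhibitor gene, stood at 424 ± 122 CPM with aerocyte capillary cells next at 53.1 CPM, and Lama3, a laminin chain gene, at 364 ± 83.2 CPM with arterial endothelial cells next at 38.5 CPM. Ndnf, which encodes a secreted neurotrophic factor, stood at 1427 ± 295 CPM with myofibroblasts next at 157 CPM.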
